A study of Mus musculus with 8 samples.

Results

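Enteric neuron and neuropeptide genes were examined in 8 whole mouse colon tumours as a list of 36 genes chosen by name. The list covers neuronal cytoskeleton, transmitter synthesis, neuropeptides, synaptic vesicles, neural adhesion, and transcription factors and receptors of the enteric lineage. The list was drawn up with this comparison's results already known, so counts over it are a description of these genes and carry no weight as evidence about neurons. Of the 36 genes, 35 were found among the 38355 genes of each count table and 31 had enough reads to be tested among 16539 genes. Slc18a3, the vesicular acetylcholine transporter gene, was not analysed here. Stmn3, Chat, Calb2 and Th had reads but stayed under the filter on low counts, so their values are given with no test.

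The tumours came from 4 Trp53ΔIECAktE17K mice and 4 Trp53ΔIEC mice, with a single whole tumour per mouse. All 8 mice had received azoxymethane, a carcinogen that induces colon tumours in rodents. Both groups carry Trp53ΔIEC, which in the usual notation is loss of the tumour suppressor Trp53 in intestinal epithelial cells, and the Trp53ΔIECAktE17K group adds the activated kinase variant AktE17K. The Cre driver, the strain, the sex and the age of the mice are not given in the labels, and n is 4 tumours of 4 mice in each group for every mean below.

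The enteric nervous system lies inside the gut wall, in ganglia between the muscle layers and in the submucosa, and sends nerve fibres into muscle, vessels and mucosa. Its excitatory motor neurons use acetylcholine and tachykinins such as substance P, whereas its inhibitory motor neurons use nitric oxide and vasoactive intestinal peptide. Axons carry some RNA, but most of it lies in the nerve cell bodies, and several vesicle and peptide genes are also used by the hormone-producing cells of the epithelium.

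Promoter sequences are shown for the 3 genes that were higher in the Trp53ΔIECAktE17K tumours and whose promoter window held the cyclic AMP response element TGACGTCA or its first 7 bases, TGACGTC, on either strand. They are the promoters of Vip, Cartpt and Scg2, which encode a vasodilator peptide, the CART peptide precursor and a granin of secretory vesicles. Each stretch is the 150 bases before the RefSeq start on GRCm38.p6, written 5′ to 3′ in the direction of the gene, with the element in capitals. The Vip stretch is chr10:5639068-5639217 on the plus strand, the Cartpt stretch chr13:99900684-99900833 on the minus strand and the Scg2 stretch chr1:79440027-79440176 on the minus strand.
Vip: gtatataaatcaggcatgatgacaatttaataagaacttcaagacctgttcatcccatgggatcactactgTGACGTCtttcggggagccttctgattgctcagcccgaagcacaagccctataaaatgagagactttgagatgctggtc
Cartpt: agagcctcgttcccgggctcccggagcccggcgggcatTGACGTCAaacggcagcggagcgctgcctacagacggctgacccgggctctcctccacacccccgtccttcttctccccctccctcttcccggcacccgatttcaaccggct
Scg2: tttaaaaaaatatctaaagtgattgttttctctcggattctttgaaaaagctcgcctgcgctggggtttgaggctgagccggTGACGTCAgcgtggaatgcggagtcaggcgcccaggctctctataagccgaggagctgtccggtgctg

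Counted from the start, the element lay at -79 to -73 in Vip, at -112 to -105 in Cartpt and at -68 to -61 in Scg2. Windows of 300 bases, from 250 before to 50 after the start, were present for 26 of the 36 genes. The full element TGACGTCA was found in 3 of these 26 windows, those of Cartpt, Scg2 and Th, and in 1.85% of the 27025 windows of all genes. The shorter TGACGTC, which every full element contains, was found in 5 of 26 windows, with Vip and Rab3a added, and in 3.30% of all windows. The element is therefore present in Th and Rab3a, which were not among the genes called higher, and it was not found in the windows of 7 of the 10 called genes that have one. A TAATTA core, which paired-type homeodomain factors can bind, was found in the windows of Hand2 and Tac1 and in 5.32% of all windows. A match of letters is a description of the window and shows neither binding nor a cause.

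Reads assigned to genes ranged from 22568555 to 23654913 in the Trp53ΔIECAktE17K tumours and from 18572180 to 26268547 in the Trp53ΔIEC tumours. Levels are given as CPM, the counts scaled by each library's TMM-adjusted size, so that a single read is worth a few hundredths of a CPM. Pairwise correlations of log2 CPM were 0.896 to 0.957 within the Trp53ΔIECAktE17K tumours, 0.94 to 0.966 within the Trp53ΔIEC tumours and 0.873 to 0.937 between them. Total Trp53 levels were 24.8 to 37.1 CPM in the Trp53ΔIECAktE17K tumours and 20.8 to 25.7 CPM in the Trp53ΔIEC tumours, and gene counts of whole tumours do not show either genotype. The epithelial gene Epcam averaged 1518 ± 388 CPM in the Trp53ΔIECAktE17K tumours and 2294 ± 236 CPM in the Trp53ΔIEC tumours (SD). Epcam was thus present in both groups, with the lower mean in the Trp53ΔIECAktE17K tumours, and a single gene does not measure the share of epithelium.

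Of the 31 tested genes, 15 were called higher and 0 lower in the Trp53ΔIECAktE17K tumours at an adjusted p under 0.05 (edgeR quasi-likelihood test, Benjamini-Hochberg over all tested genes). Over all 16539 tested genes, 3.44% were called higher and 0.756% lower. At an unadjusted p under 0.05, 20 of the 31 were higher and 1, Stx1a, was lower. The share of all tested genes at this unadjusted threshold was not computed, so these counts stand without a baseline. The 15 genes were Uchl1, Prph, Stmn2, Tubb3, Nefl, Nefm, Gap43, Hand2, Nos1, Vip, Cartpt, Dbh, Snap25, Scg2 and Scg3. In 18 of the 31 genes every Trp53ΔIECAktE17K tumour lay above every Trp53ΔIEC tumour, and in 0 genes every one lay below. Over all tested genes these shares were 8.34% and 5.88%. The median log2 fold change was 2.80 over the 31 genes and 0.01 over all tested genes. DESeq2 called 19 of the 31 higher (8.56% of all tested genes), adding Gal, Ncam1, Rab3a and Syp, and called 1 lower, again Stx1a (4.55% of all tested genes). Limma-voom called 14 higher (2.48% of all tested genes), leaving out Dbh, and 0 lower. The sample titles carry a letter, A for Trp53ΔIECAktE17K tumours 1 and 2 but B for Trp53ΔIECAktE17K tumours 3 and 4 and for all Trp53ΔIEC tumours, and the labels do not explain it. With that letter as a term in edgeR, 2 of the 31 genes were called higher, Gap43 and Uchl1 (0.544% of all tested genes). The letter A occurs in Trp53ΔIECAktE17K tumours alone, so letter and genotype are partly confounded. The group difference in that fit rests on Trp53ΔIECAktE17K tumours 3 and 4 against the 4 Trp53ΔIEC tumours. These are bulk samples, in which fewer cells of a type and less RNA per cell cannot be told apart.

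**Figure D1:**
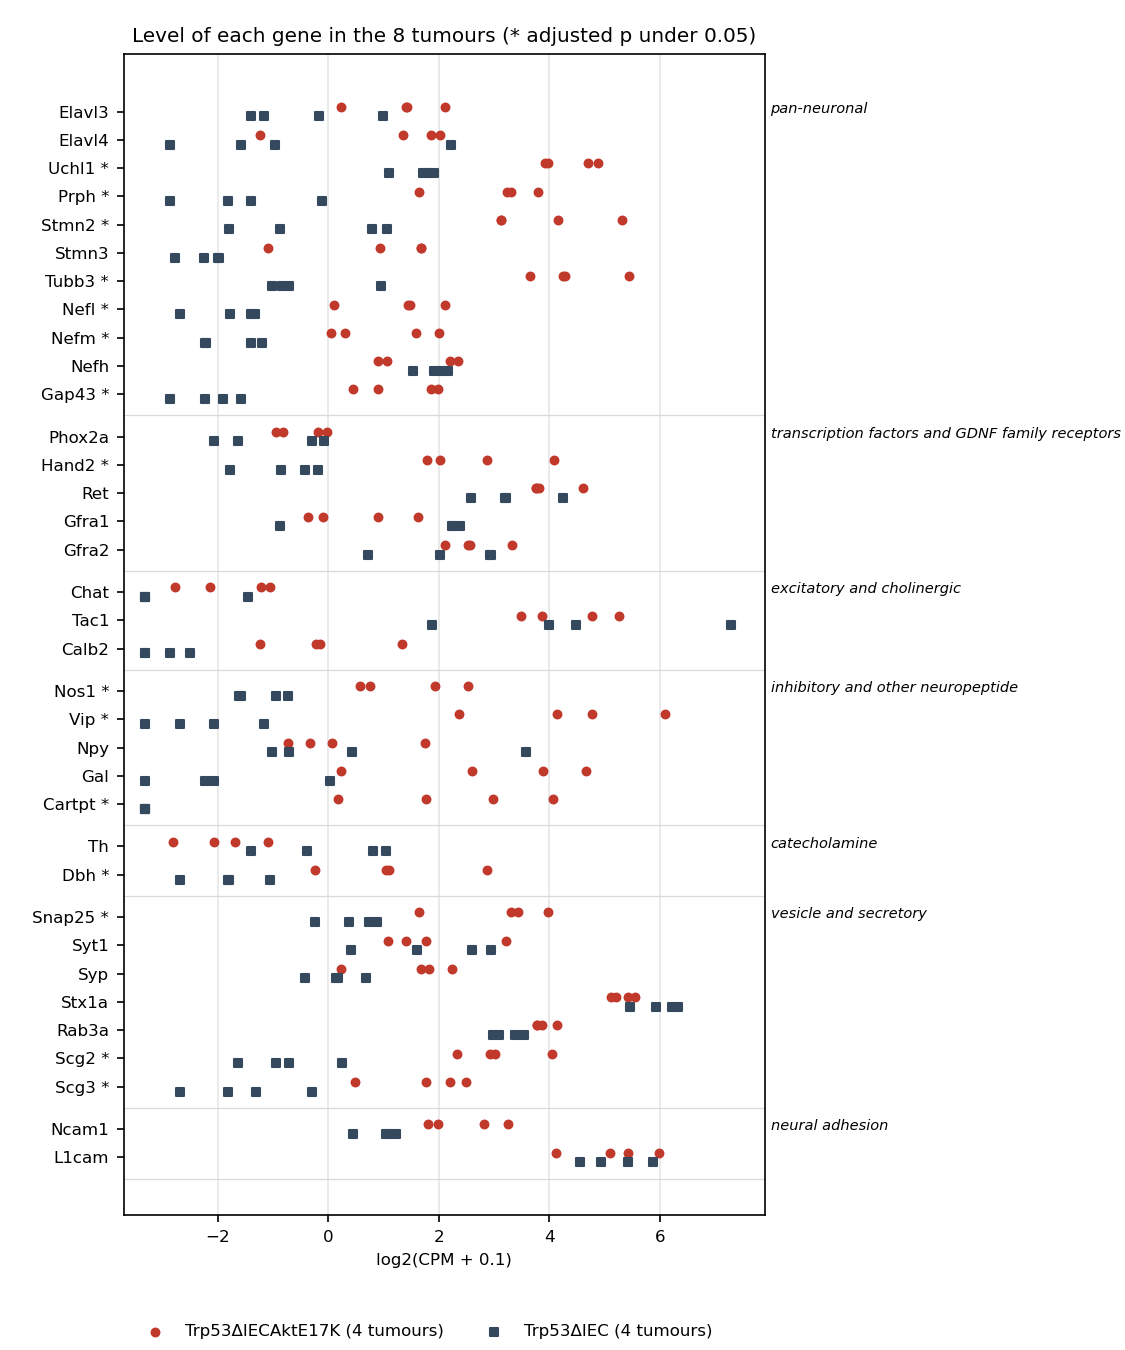
Level of the 35 genes in each of the 8 tumours as log2(CPM + 0.1), with genes grouped by role, circles for the Trp53ΔIECAktE17K tumours and squares for the Trp53ΔIEC tumours. An asterisk marks the 15 genes called higher, and genes such as Uchl1, Tubb3, Vip and Cartpt show a gap between the groups, whereas Nefh, Phox2a, Syt1 and L1cam overlap.

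Among the pan-neuronal genes 7 of 10 tested were called higher and 0 lower, with a median log2 fold change of 3.51. Uchl1, a ubiquitin hydrolase abundant in nerve cell bodies and axons, had 26.0, 29.4, 15.5 and 15.0 CPM in Trp53ΔIECAktE17K tumours 1 to 4, against 3.41, 3.65, 3.19 and 2.05 CPM in Trp53ΔIEC tumours 1 to 4. The groups lay far apart, and all 4 Trp53ΔIEC tumours held a low level. The means were 21.5 ± 7.29 and 3.07 ± 0.708 CPM (SD), and the log2 fold change was 2.80 ± 0.32 (SE, adjusted p = 0.00768). Uchl1 was the 1 gene of the list that stayed called whichever tumour was left out, with an adjusted p of at most 0.0449.

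Tubb3, the beta tubulin of neurons, had 43.5, 19.3, 18.8 and 12.4 CPM in the Trp53ΔIECAktE17K tumours, against 0.459, 1.84, 0.391 and 0.512 CPM in the Trp53ΔIEC tumours. It was highest in Trp53ΔIECAktE17K tumour 1, and the groups did not overlap. The log2 fold change was 4.85 ± 0.67 (SE, adjusted p = 0.0142). It was 5.67 without Trp53ΔIEC tumour 2, and the call was lost without Trp53ΔIEC tumour 3 (adjusted p = 0.0563) or 4 (0.0638). Stmn2, a stathmin that regulates microtubules in growing axons, had 39.6, 8.64, 17.8 and 8.66 CPM in the Trp53ΔIECAktE17K tumours, against 1.99, 0.188, 0.447 and 1.63 CPM in the Trp53ΔIEC tumours. Trp53ΔIECAktE17K tumour 1 again stood highest, without overlap. Its log2 fold change was 4.12 ± 0.85 (SE, adjusted p = 0.0395), or 3.43 without Trp53ΔIECAktE17K tumour 1. The Stmn2 call was kept in 1 of the 8 removals, that of Trp53ΔIECAktE17K tumour 4, and in the other 7 the adjusted p reached up to 0.102. Stmn3, a related stathmin that was not tested, had 1.82, 3.09, 3.11 and 0.372 CPM in the Trp53ΔIECAktE17K tumours, against 0.153, 0.150, 0.112 and 0.0465 CPM in the Trp53ΔIEC tumours, again without overlap.

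The intermediate filament genes divided. Prph encodes peripherin, the filament protein of peripheral and enteric neurons, and had 13.7, 9.34, 9.79 and 3.03 CPM in the Trp53ΔIECAktE17K tumours, against 0.0383, 0.827, 0.279 and 0.186 CPM in the Trp53ΔIEC tumours. All Trp53ΔIECAktE17K tumours were above all Trp53ΔIEC tumours, and tumour 4 was the lowest of its group. For Prph the log2 fold change was 4.71 ± 0.84 (SE, adjusted p = 0.0261), or 5.75 without Trp53ΔIEC tumour 2. The call was lost without Trp53ΔIECAktE17K tumour 1 (adjusted p = 0.0710) or 2 (0.0551) and without Trp53ΔIEC tumour 3 (0.0812) or 4 (0.0843).

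Nefl, the light neurofilament chain, had 2.62, 4.20, 2.69 and 0.978 CPM in the Trp53ΔIECAktE17K tumours, against 0.191, 0.301, 0.0559 and 0.279 CPM in the Trp53ΔIEC tumours. Nefm, the medium chain, had 3.89, 2.92, 1.13 and 0.931 CPM in the Trp53ΔIECAktE17K tumours, against 0.115, 0.113, 0.335 and 0.279 CPM in the Trp53ΔIEC tumours. Neither gene's groups overlapped, although the Trp53ΔIEC values rest on few reads. The log2 fold changes were 3.60 ± 0.58 (SE, adjusted p = 0.0205) for Nefl and 3.41 ± 0.63 (SE, adjusted p = 0.0275) for Nefm. Nefl lost its call without Trp53ΔIECAktE17K tumour 1 or any 1 of the Trp53ΔIEC tumours (adjusted p up to 0.0741), and Nefm also without Trp53ΔIECAktE17K tumour 2 (up to 0.0918). Both genes share 1108 exonic bases on opposite strands, and the library kit does not record strand, so their reads cannot be told apart there. Nefh, the heavy chain, did not follow them, with 1.77 to 4.98 CPM in the Trp53ΔIECAktE17K tumours and 2.79 to 4.37 CPM in the Trp53ΔIEC tumours (log2 fold change -0.17 ± 0.40, SE, adjusted p = 0.848).

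Gap43, a growth cone protein of axons, had 3.85, 3.54, 1.76 and 1.26 CPM in the Trp53ΔIECAktE17K tumours, against 0.0383, 0.113, 0.168 and 0.233 CPM in the Trp53ΔIEC tumours. The groups did not overlap, and the log2 fold change was 4.23 ± 0.60 (SE, adjusted p = 0.0142). The call was lost without Trp53ΔIEC tumour 2 (adjusted p = 0.0664) or 3 (0.0574). Elavl3 and Elavl4 encode the neuronal RNA-binding Hu proteins, which mark nerve cell bodies, and did not pass the test. Elavl3 had 1.07 to 4.24 CPM in the Trp53ΔIECAktE17K tumours and 0.279 to 1.88 CPM in the Trp53ΔIEC tumours (log2 fold change 1.64 ± 0.66, SE, adjusted p = 0.205, or 2.45 without Trp53ΔIEC tumour 2). Elavl4 had 2.46, 3.54, 3.95 and 0.326 CPM in the Trp53ΔIECAktE17K tumours, against 0.0383, 0.414, 4.58 and 0.233 CPM in the Trp53ΔIEC tumours (log2 fold change 0.99 ± 1.22, SE, adjusted p = 0.689). Trp53ΔIEC tumour 3 held the highest Elavl4 value of all 8 tumours, and the log2 fold change was 3.43 without it, still not called.

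Of the 5 transcription factor and GDNF family receptor genes 1 was called higher, with a median log2 fold change of 0.38. Hand2, a basic helix-loop-helix factor needed for enteric neurons to mature and also used in mesenchyme, had 7.24, 16.9, 3.95 and 3.35 CPM in the Trp53ΔIECAktE17K tumours, against 0.191, 0.451, 0.782 and 0.651 CPM in the Trp53ΔIEC tumours. Trp53ΔIECAktE17K tumour 2 was the highest, and the groups did not overlap. For Hand2 the log2 fold change was 3.93 ± 0.68 (SE, adjusted p = 0.0247), or 3.21 without Trp53ΔIECAktE17K tumour 2. The call was lost without Trp53ΔIECAktE17K tumour 1 or any 1 Trp53ΔIEC tumour, with an adjusted p of up to 0.0846.

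Phox2a, a homeodomain factor of autonomic neurons, had 0.419 to 0.882 CPM in the Trp53ΔIECAktE17K tumours and 0.140 to 0.842 CPM in the Trp53ΔIEC tumours (log2 fold change 0.38 ± 0.57, SE, adjusted p = 0.750). Ret, the signalling receptor through which GDNF guides and sustains enteric precursors, had 13.5, 13.4, 13.9 and 24.2 CPM in the Trp53ΔIECAktE17K tumours, against 9.22, 9.10, 18.9 and 5.91 CPM in the Trp53ΔIEC tumours (log2 fold change 0.59 ± 0.38, SE, adjusted p = 0.420). Ret was thus well above its detection limit in both groups, and the groups overlapped. Its co-receptor genes Gfra1, which binds GDNF, and Gfra2, which binds neurturin, had log2 fold changes of -1.25 ± 0.74 (SE, adjusted p = 0.377) and 0.31 ± 0.51 (SE, adjusted p = 0.775). Gfra1 ranged from 0.672 to 2.96 CPM in the Trp53ΔIECAktE17K tumours and from 0.447 to 5.12 CPM in the Trp53ΔIEC tumours.

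Among the inhibitory and other peptide transmitter genes 3 of 5 were called higher, with a median log2 fold change of 5.25, the highest of the role groups. Vip, the precursor of vasoactive intestinal peptide (ENSMUSG00000019772, chromosome 10), had 17.5, 68.4, 27.3 and 5.08 CPM in the Trp53ΔIECAktE17K tumours, against 0.344, 0, 0.0559 and 0.140 CPM in the Trp53ΔIEC tumours. Its transcripts were plentiful in all Trp53ΔIECAktE17K tumours, most in tumour 2, and near the limit of detection in the Trp53ΔIEC tumours. The means were 29.6 ± 27.4 CPM and 0.135 ± 0.151 CPM (SD), and the log2 fold change was 7.68 ± 1.13 (SE, adjusted p = 0.0160), a fitted fold of 205. For Vip it was 6.84 without Trp53ΔIECAktE17K tumour 2 and 8.78 without Trp53ΔIEC tumour 1. The call was lost without Trp53ΔIEC tumour 2 (adjusted p = 0.0562), 3 (0.0591) or 4 (0.0675).

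Cartpt, the CART peptide precursor (ENSMUSG00000021647, chromosome 13), had 3.30, 16.7, 7.77 and 1.02 CPM in the Trp53ΔIECAktE17K tumours and 0 counts in all 4 Trp53ΔIEC tumours. A count of 0 allows up to 3 counts over the group, or 0.0326 CPM, so Cartpt was at least 221-fold higher (adjusted p = 0.0384), or at least 124-fold without Trp53ΔIECAktE17K tumour 2. This limit covers counting error only. The call was kept in 1 of 8 removals, that of Trp53ΔIECAktE17K tumour 4, and the adjusted p reached up to 0.0857 in the others. Gal, the galanin precursor, had 5.93, 25.2, 14.7 and 1.07 CPM in the Trp53ΔIECAktE17K tumours, against 0.918, 0.113, 0 and 0.140 CPM in the Trp53ΔIEC tumours. The groups did not overlap, but the gap between Trp53ΔIECAktE17K tumour 4 and Trp53ΔIEC tumour 1 was small. Its log2 fold change was 5.25 ± 1.27 (SE, adjusted p = 0.0606), 6.96 without Trp53ΔIEC tumour 1 and 4.53 without Trp53ΔIECAktE17K tumour 2, and without Trp53ΔIECAktE17K tumour 4 it was called (adjusted p = 0.0318).

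Nos1, the neuronal nitric oxide synthase that makes the gas transmitter of inhibitory motor neurons, had 3.73, 5.64, 1.60 and 1.40 CPM in the Trp53ΔIECAktE17K tumours, against 0.421, 0.226, 0.503 and 0.233 CPM in the Trp53ΔIEC tumours. The groups did not overlap, with tumours 1 and 2, whose titles carry the letter A, above tumours 3 and 4 among the Trp53ΔIECAktE17K tumours. Nos1 had a fitted log2 fold change of 3.15 ± 0.57 (SE, adjusted p = 0.0263). The Nos1 call was kept without Trp53ΔIECAktE17K tumour 3 or 4 and lost in the other 6 removals, with an adjusted p of up to 0.0893. Npy, the neuropeptide Y precursor, had 3.26, 0.947, 0.504 and 0.699 CPM in the Trp53ΔIECAktE17K tumours, against 11.8, 1.24, 0.391 and 0.512 CPM in the Trp53ΔIEC tumours. Tumour 1 was the highest in each group, and the log2 fold change of -1.37 ± 1.14 (SE, adjusted p = 0.538) became 0.89 without Trp53ΔIEC tumour 1 and -2.30 without Trp53ΔIECAktE17K tumour 1.

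The excitatory and cholinergic genes gave little that could be tested. Tac1, which encodes substance P and neurokinin A, had 14.4, 27.1, 11.1 and 38.3 CPM in the Trp53ΔIECAktE17K tumours, against 3.56, 15.9, 156.3 and 22.2 CPM in the Trp53ΔIEC tumours. Trp53ΔIEC tumour 3 stood far above the other 7, and the rest of the groups overlapped. The log2 fold change was -1.12 ± 1.00 (SE, adjusted p = 0.566) with all tumours and 0.69 without Trp53ΔIEC tumour 3. Chat, the enzyme that makes acetylcholine, had 0.0466 to 0.381 CPM in the Trp53ΔIECAktE17K tumours and 0, 0.263, 0 and 0 CPM in the Trp53ΔIEC tumours, so the groups overlapped through Trp53ΔIEC tumour 2. Calb2, the calcium-binding protein calretinin of many enteric neurons, had 0.762, 2.43, 0.798 and 0.326 CPM in the Trp53ΔIECAktE17K tumours, against 0.0765, 0.0376, 0 and 0 CPM in the Trp53ΔIEC tumours. Its groups did not overlap, and the ratio of summed counts was 33.9 (95% exact Clopper-Pearson interval 11.3 to 167, counting error only).

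The catecholamine genes did not run together. Dbh, which makes noradrenaline from dopamine, had 2.03, 7.20, 1.97 and 0.745 CPM in the Trp53ΔIECAktE17K tumours, against 0.383, 0.188, 0.0559 and 0.186 CPM in the Trp53ΔIEC tumours, without overlap. Its log2 fold change was 3.80 ± 0.81 (SE, adjusted p = 0.0415), or 2.87 without Trp53ΔIECAktE17K tumour 2. The Dbh call was kept in the removal of Trp53ΔIECAktE17K tumour 4 alone, with an adjusted p of up to 0.121 in the other 7, and limma-voom gave 0.0580. Th, the enzyme at the start of catecholamine synthesis, was not tested and had 0.212, 0.370, 0.0420 and 0.140 CPM in the Trp53ΔIECAktE17K tumours, against 1.95, 1.66, 0.670 and 0.279 CPM in the Trp53ΔIEC tumours. The groups overlapped for Th, with most Trp53ΔIEC tumours the higher.

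Of the 7 vesicle and secretory genes 3 were called higher, with a median log2 fold change of 1.53. Scg2, a granin that is stored with peptides in dense-core vesicles, had 7.49, 16.4, 7.98 and 4.94 CPM in the Trp53ΔIECAktE17K tumours, against 0.421, 1.09, 0.224 and 0.512 CPM in the Trp53ΔIEC tumours. Trp53ΔIECAktE17K tumour 2 was again the highest, without overlap. For Scg2 the log2 fold change was 4.00 ± 0.59 (SE, adjusted p = 0.0160), and the call was lost without Trp53ΔIEC tumour 3 (adjusted p = 0.0563) or 4 (0.0675). Scg3, a granin-family protein that binds other granins, had 3.30, 5.51, 4.49 and 1.30 CPM in the Trp53ΔIECAktE17K tumours, against 0.306, 0.714, 0.0559 and 0.186 CPM in the Trp53ΔIEC tumours. Its groups did not overlap. The log2 fold change was 3.47 ± 0.72 (SE, adjusted p = 0.0396), or 4.23 without Trp53ΔIEC tumour 2. Scg3 stayed called without Trp53ΔIECAktE17K tumour 4 and lost its call in the other 7 removals, with an adjusted p of up to 0.114.

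Snap25, a SNARE protein of the neuronal plasma membrane, had 10.7, 15.6, 9.79 and 3.03 CPM in the Trp53ΔIECAktE17K tumours, against 1.57, 1.203, 1.73 and 0.745 CPM in the Trp53ΔIEC tumours. The groups did not overlap, and the log2 fold change was 2.89 ± 0.52 (SE, adjusted p = 0.0264). Its call was kept without Trp53ΔIECAktE17K tumour 3 or 4 and lost in the other 6 removals, with an adjusted p of up to 0.0893. Its SNARE partner Stx1a had 34.7, 46.7, 42.8 and 36.9 CPM in the Trp53ΔIECAktE17K tumours, against 80.4, 74.3, 43.9 and 60.9 CPM in the Trp53ΔIEC tumours. The groups touched between 1 tumour of each, and the log2 fold change was -0.69 ± 0.20 (SE, adjusted p = 0.104), which DESeq2 called lower (adjusted p = 0.0229). Rab3a, a GTPase of synaptic vesicles, had 13.6, 13.7, 17.4 and 14.5 CPM in the Trp53ΔIECAktE17K tumours, against 8.42, 10.3, 7.77 and 11.6 CPM in the Trp53ΔIEC tumours. Rab3a did not overlap either, with a small log2 fold change of 0.64 ± 0.21 (SE, adjusted p = 0.129).

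Syp, the vesicle membrane protein synaptophysin, had 1.07 to 4.61 CPM in the Trp53ΔIECAktE17K tumours and 0.651 to 1.504 CPM in the Trp53ΔIEC tumours (log2 fold change 1.53 ± 0.47, SE, adjusted p = 0.115). It was called without Trp53ΔIECAktE17K tumour 4 (adjusted p = 0.0364). Syt1, the calcium sensor of vesicle release, had 2.002 to 9.23 CPM in the Trp53ΔIECAktE17K tumours and 1.23 to 7.60 CPM in the Trp53ΔIEC tumours (log2 fold change -0.05 ± 0.66, SE, adjusted p = 0.976, or -0.78 without Trp53ΔIECAktE17K tumour 1). Of the neural adhesion genes, Ncam1 had 9.40, 6.91, 3.40 and 3.87 CPM in the Trp53ΔIECAktE17K tumours, against 2.07, 1.96, 2.23 and 1.26 CPM in the Trp53ΔIEC tumours. Its groups did not overlap, but the log2 fold change of 1.65 ± 0.40 (SE) had an adjusted p of 0.0622, and of 0.0452 without Trp53ΔIECAktE17K tumour 3. L1cam, which guides neural crest cells and axons and is also made by some epithelial tumours, had 17.3 to 63.3 CPM in the Trp53ΔIECAktE17K tumours and 23.3 to 58.3 CPM in the Trp53ΔIEC tumours (log2 fold change 0.02 ± 0.41, SE, adjusted p = 0.983).

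**Figure D2:**
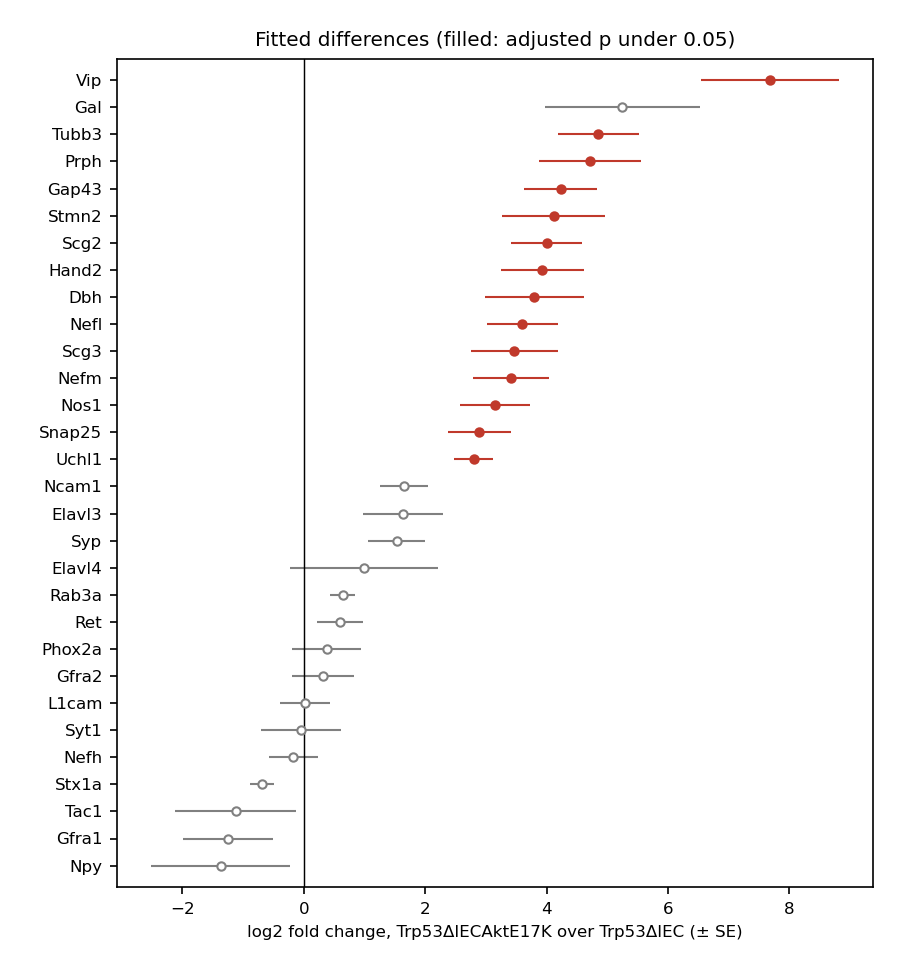
Fitted log2 fold change of Trp53ΔIECAktE17K over Trp53ΔIEC tumours with its standard error, for 30 of the 31 tested genes. Cartpt is not drawn because its fold is a lower bound, filled points mark called genes, and Vip stands farthest to the right at 7.68 while Npy stands lowest at -1.37.

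Levels can be compared between genes only per length, and the next values are mean CPM per kilobase of exonic sequence (SD). In the Trp53ΔIECAktE17K tumours the 4 highest genes were Stx1a at 15.1 ± 2.05, Gal at 14.9 ± 13.5, Uchl1 at 13.2 ± 4.47 and Tubb3 at 12.6 ± 7.34, and these levels lay within each other's spread. Vip followed at 8.70 ± 8.07, and Nos1 was near the bottom at 0.277 ± 0.179. In the Trp53ΔIEC tumours Stx1a was also the first at 24.3 ± 6.07, ahead of Tac1 at 14.6 ± 21.1, Npy at 6.15 ± 9.80, L1cam at 5.28 ± 2.09 and Rab3a at 4.27 ± 0.783. Gal and Vip ranked 14 and 30 of 35 there, at 0.372 ± 0.535 and 0.0397 ± 0.0444. The 5 highest genes of the Trp53ΔIEC tumours did not pass the test, and Uchl1, next in order at 1.88 ± 0.434, was called higher.

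Most called genes shared their lowest Trp53ΔIECAktE17K tumour, whereas the rest of the order differed between genes. Of the 15 called genes, 10 were highest in tumour 2 and 5 in tumour 1, and 14 were lowest in tumour 4. The exception to the last count was Stmn2, for which tumour 2 was just below tumour 4. The titles of tumours 1 and 2 carry the letter A. Both lay above tumours 3 and 4 for Uchl1, Tubb3, Nefm, Gap43, Hand2, Nos1, Dbh and Snap25. That order did not hold for Prph, Stmn2, Nefl, Vip, Cartpt, Scg2 and Scg3. The highest tumour exceeded the lowest by 1.95-fold for Uchl1 up to 16.3-fold for Cartpt, with a median of 4.29-fold. The peptide genes Vip, Gal and Cartpt were each highest in tumour 2, then in tumour 3, then in tumour 1, and lowest in tumour 4. The summed CPM of the 11 pan-neuronal genes was 142, 91.5, 83.3 and 45.8 in Trp53ΔIECAktE17K tumours 1 to 4, against 10.6 to 13.2 in the Trp53ΔIEC tumours.

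**Figure D3:**
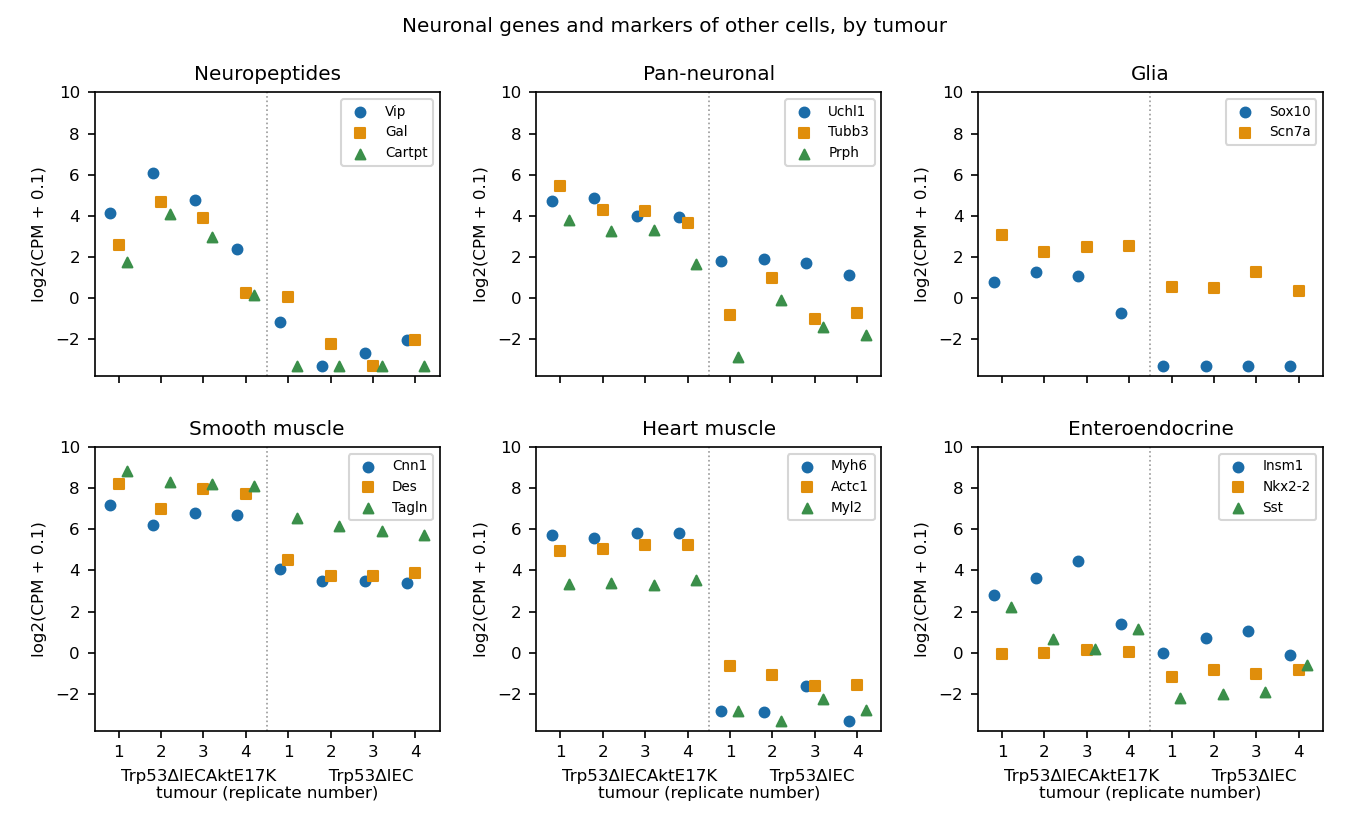
Level as log2(CPM + 0.1) in each tumour, Trp53ΔIECAktE17K tumours 1 to 4 left of the dotted line and Trp53ΔIEC tumours 1 to 4 right of it, for named genes of the list and of other cell types. Among the Trp53ΔIECAktE17K tumours Vip ranges from 5.08 to 68.4 CPM, whereas the heart muscle gene Myh6 ranges from 47.6 to 57.0 CPM.

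Wider lists of the same biology were read beside these genes. For these lists and the marker lists below, the shares over all 16539 tested genes are 3.44% called higher and 0.756% lower. A single call in a short list is no result about that list. Of 45 further enteric neuron genes 30 were tested, 8 were called higher and 0 lower, with a median log2 fold change of 1.19. Among those with the smallest adjusted p were Htr3a, Sncg and Bnc2. Sncg, the gamma synuclein of peripheral neurons, averaged 4.27 ± 2.49 CPM in the Trp53ΔIECAktE17K tumours and 0.492 ± 0.159 CPM in the Trp53ΔIEC tumours (SD, adjusted p = 0.0229). Htr3a, a serotonin-gated channel subunit, averaged 1.22 ± 0.429 and 0.0282 ± 0.0564 CPM in the same order (adjusted p = 0.0204), and Bnc2, a zinc finger factor, 0.744 ± 0.194 and 0.0522 ± 0.0722 CPM (adjusted p = 0.0396). Of the 8 removals, 6 ended the call of Bnc2 and 4 each those of Htr3a and Sncg. The values of Htr3a and Bnc2 rest on few reads, and their log2 fold changes of 5.05 and 3.67 became 7.80 without Trp53ΔIEC tumour 2 and 5.15 without Trp53ΔIEC tumour 1. Penk, the enkephalin precursor of excitatory and inhibitory enteric neurons, was also called and is named after its values were seen, with 127, 63.8, 35.1 and 8.20 CPM in the Trp53ΔIECAktE17K tumours, against 1.68, 5.19, 3.97 and 0.884 CPM in the Trp53ΔIEC tumours (adjusted p = 0.0398). Penk did not overlap between the groups and was highest in Trp53ΔIECAktE17K tumour 1, and its call ended in 6 of the 8 removals. For Penk the log2 fold change was 4.32 with all tumours and 3.58 without that tumour.

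Of 28 further vesicle and peptide processing genes 22 were tested and 4 called higher, with a median log2 fold change of 1.2. Syn2, a synapsin that tethers vesicles, averaged 5.91 ± 3.15 CPM in the Trp53ΔIECAktE17K tumours and 0.543 ± 0.345 CPM in the Trp53ΔIEC tumours (SD, adjusted p = 0.0233). Cplx2 and Rims1, which act in vesicle fusion, had log2 fold changes of 1.57 ± 0.31 and 5.03 ± 0.77 (SE, adjusted p = 0.0318 and 0.0178). Vgf, a neuropeptide precursor that nerve growth factor induces, had one of 4.20 ± 0.70 (SE, adjusted p = 0.0223), or 3.55 without Trp53ΔIECAktE17K tumour 2. The 4 genes lost their calls in 2 removals (Rims1), 4 (Vgf), 5 (Syn2) and 6 (Cplx2).

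Of 14 GDNF family and endothelin genes 10 were tested, and the called one was Artn, the artemin ligand of sympathetic neurons, at 9.02 ± 5.44 CPM in the Trp53ΔIECAktE17K tumours and 1.77 ± 0.702 CPM in the Trp53ΔIEC tumours (SD, adjusted p = 0.0384). Its call was lost in 6 removals. Of 16 tested receptors of these transmitters 1 was called, the neurokinin receptor Tacr2 of gut smooth muscle, at 1.01 ± 0.397 CPM in the Trp53ΔIECAktE17K tumours and 0.150 ± 0.0966 CPM in the Trp53ΔIEC tumours (SD, adjusted p = 0.0277), and it was also lost in 6. The medians of the GDNF and receptor lists were 0.92 and 0.63 on the log2 scale.

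Markers of other cells of the gut wall were also read in the same tumours. Of 10 tested glia and Schwann cell markers 2 were called higher, with a median log2 fold change of 1.64. Sox10, the glial lineage factor, had 1.61, 2.31, 2.02 and 0.512 CPM in the Trp53ΔIECAktE17K tumours and 0 counts in all 4 Trp53ΔIEC tumours (adjusted p = 0.0228), and the glial sodium channel gene Scn7a averaged 6.04 ± 1.63 and 1.52 ± 0.520 CPM in the same order (adjusted p = 0.0232). Sox10 was highest in Trp53ΔIECAktE17K tumour 2 and lowest in tumour 4. Scn7a ran otherwise, with 8.38, 4.61, 5.50 and 5.68 CPM in Trp53ΔIECAktE17K tumours 1 to 4, highest in tumour 1 and lowest in tumour 2. The summed level of the 15 glial markers was 237, 259.6, 979 and 187 CPM in Trp53ΔIECAktE17K tumours 1 to 4, so that the highest value is tumour 3 alone, and 157 to 226 CPM in the Trp53ΔIEC tumours. Sox10 and Cdh19 were the 2 markers at 0 in every Trp53ΔIEC tumour, and the Trp53ΔIECAktE17K level of Cdh19 is not given here. The call of Sox10 ended in 5 of the 8 removals and that of Scn7a in 4.

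Smooth muscle markers were called higher in 8 of 14, with a median log2 fold change of 1.32 and a summed level of 1241 to 2027 CPM in the Trp53ΔIECAktE17K tumours and 412 to 694 CPM in the Trp53ΔIEC tumours. Cnn1, Des, Tagln and Actg2 were the 4 named by the rule, with Cnn1 at 146, 72.8, 111 and 103 CPM in the Trp53ΔIECAktE17K tumours, against 16.8, 10.9, 11.3 and 10.3 CPM in the Trp53ΔIEC tumours. Among the Trp53ΔIECAktE17K tumours, 6 of the 8 called muscle markers were highest in tumour 1, and 6 were lowest in tumour 2. Of the 15 called neuronal genes, 5 were also highest in tumour 1, whereas 10 were highest in tumour 2. Of 7 markers of interstitial cells of Cajal 1 was called, Etv1, which is also among the further enteric neuron genes, and of 5 tested mesothelial markers 2 were called, Wt1 and Rspo1. Removals ended these calls in 7 runs for Etv1, 1 for Wt1 and 5 for Rspo1. The summed level of the Cajal cell markers was 304 to 912 CPM in the Trp53ΔIECAktE17K tumours and 346 to 382 CPM in the Trp53ΔIEC tumours. For the mesothelial markers it was 16.5 to 335 and 29.4 to 109 CPM in the same order. The mesothelial marker Upk3b was at 0 in every Trp53ΔIEC tumour, and its Trp53ΔIECAktE17K level is not given here. The part of gut wall tissue in the neuronal result was not tested.

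Enteroendocrine markers, whose cells also use granins and peptides, were called higher in 3 of 19, Insm1, Nkx2-2 and Sst, with a median log2 fold change of 1.64. Gip was the 1 marker at 0 in every Trp53ΔIEC tumour, and its Trp53ΔIECAktE17K level is not given here. The summed level of the enteroendocrine markers was 147 to 231 CPM in the Trp53ΔIECAktE17K tumours and 56.6 to 106 CPM in the Trp53ΔIEC tumours. Insm1 averaged 10.98 ± 8.41 CPM and 1.30 ± 0.541 CPM in the same order (SD, adjusted p = 0.0430), and it was highest in Trp53ΔIECAktE17K tumour 3. Of 8 tested tuft cell markers, whose cells make acetylcholine, 1 was called, Pou2f3 (3.97 ± 4.25 CPM in the Trp53ΔIECAktE17K tumours and 0.157 ± 0.0648 CPM in the Trp53ΔIEC tumours, SD, adjusted p = 0.0285), with a list median of 0.50 and a summed level of 124 to 285 and 149.8 to 315 CPM in the same order. The removals that ended the call were 7 for Insm1, 8 for Nkx2-2, 7 for Sst and 5 for Pou2f3, whose log2 fold change of 4.63 was 3.59 without Trp53ΔIECAktE17K tumour 3. Of 8 tested adrenal and sympathetic markers 1 was called, the noradrenaline transporter Slc6a2 (1.998 ± 1.496 CPM in the Trp53ΔIECAktE17K tumours and 0.0285 ± 0.0366 CPM in the Trp53ΔIEC tumours, SD, adjusted p = 0.0224, lost in 4 removals), and the summed level was 82.8 to 207 and 114 to 238 CPM in the same order. Pnmt, the adrenaline-making enzyme of chromaffin cells, was at 0 in every Trp53ΔIEC tumour, and Cyp11b1 of the adrenal cortex was at 0 in all 8. The Trp53ΔIECAktE17K level of Pnmt is not given here, so its zeros alone show no difference between the groups. Of 12 epithelial markers edgeR called 0, while DESeq2 called 1 higher and 2 lower and limma-voom 0. At an unadjusted p under 0.05 in edgeR, 1 was higher and 3 were lower, with no share of all tested genes computed. Their median log2 fold change was -0.35. The part of these cell types in the results above was not tested.

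Markers of heart and liver, which do not belong to the colon, were read as well. Of 14 tested heart muscle markers 10 were called higher, with a median log2 fold change of 5.42 and a summed level of 179 to 254 CPM in the Trp53ΔIECAktE17K tumours and 40.5 to 117 CPM in the Trp53ΔIEC tumours. Myh6, the heart myosin gene, had 52.6, 47.6, 56.8 and 57.0 CPM in the Trp53ΔIECAktE17K tumours, against 0.0383, 0.0376, 0.224 and 0 CPM in the Trp53ΔIEC tumours (adjusted p = 0.000818). The 10 called heart markers differed among the Trp53ΔIECAktE17K tumours by a median of 1.30-fold between the highest and the lowest tumour, against the median of 4.29-fold for the 15 called neuronal genes. The heart genes Myl3, Csrp3 and Sln were at 0 in every Trp53ΔIEC tumour, and their Trp53ΔIECAktE17K levels are not given here. Of 12 tested hepatocyte markers Hp was called higher and Crp lower, with a list median log2 fold change of 0.11. The summed level of the hepatocyte markers was 124.5 to 463 CPM in the Trp53ΔIECAktE17K tumours and 84.2 to 126.5 CPM in the Trp53ΔIEC tumours. Crp had 0.0423, 0, 0 and 0 CPM in the Trp53ΔIECAktE17K tumours, against 5.17, 5.64, 4.80 and 4.84 CPM in the Trp53ΔIEC tumours. Myh6 and Crp stayed called in all 8 removals, whereas Hp lost its call in 4, and its log2 fold change of 3.20 was 2.57 without Trp53ΔIECAktE17K tumour 2. The part of such RNA in the neuronal result was not tested.

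Leaving out 1 tumour moved the number of called neuronal genes between 1 and 19. Without Trp53ΔIECAktE17K tumours 1, 2, 3 and 4 in turn, 5, 7, 12 and 19 genes were called higher. Over all tested genes these removals gave 155, 252, 567 and 702 higher calls, against 569 with all 8 tumours. Without Trp53ΔIEC tumours 1, 2, 3 and 4 in turn, the neuronal numbers were 6, 4, 1 and 2. Those over all tested genes were 217, 64, 72 and 67. Leaving out Trp53ΔIECAktE17K tumour 4, the lowest of its group for most genes, kept all 15 and added Gal, Syp, Calb2 and Stmn3. Leaving out Trp53ΔIEC tumour 3 left Uchl1, and leaving out Trp53ΔIEC tumour 4 left Uchl1 and Gap43. The median log2 fold change of the tested genes stayed between 2.56 and 3.03 in the 8 removals.

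**Figure D4:**
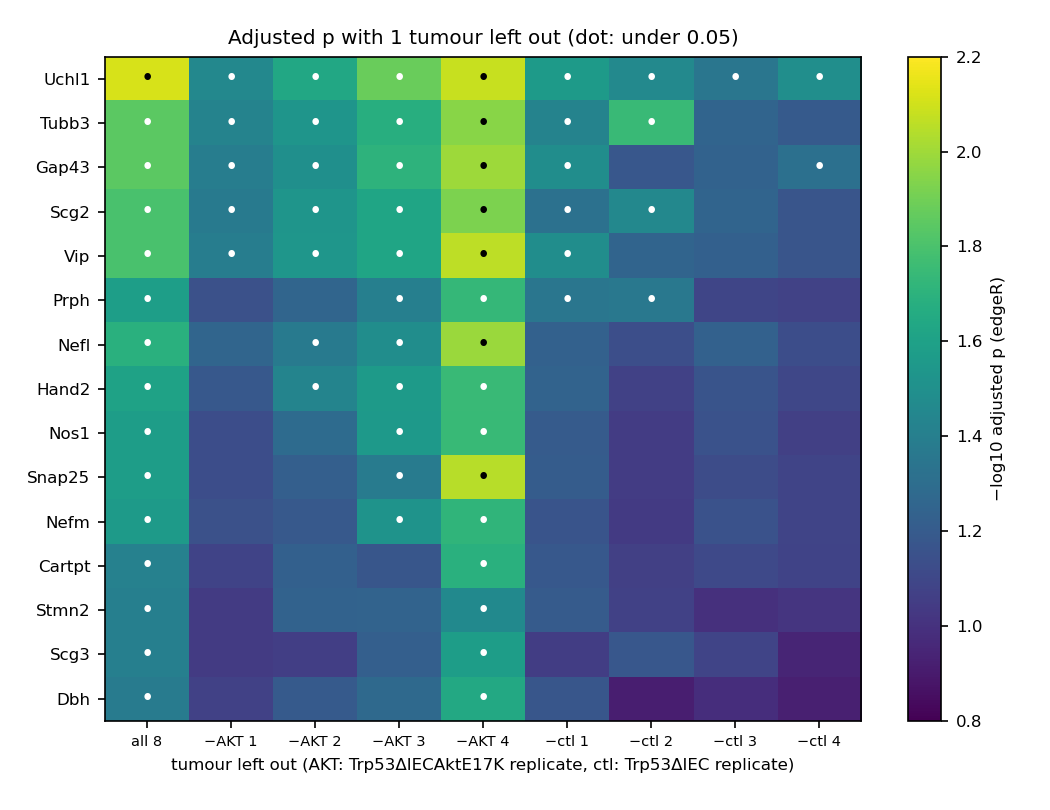
Adjusted p of the 15 called genes (rows) with all 8 tumours and with each tumour left out in turn (columns), as −log10, where a dot marks an adjusted p under 0.05. Uchl1 has a dot in every column, whereas Stmn2, Cartpt, Dbh and Scg3 have one only in the columns of all 8 tumours and of Trp53ΔIECAktE17K tumour 4 left out.

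Of the 35 genes in the tables, 10 share between 29 and 1108 exonic bases with another annotated gene. They include Uchl1, which shares 295 bases with its antisense gene Uchl1os, and Nos1, which shares 268 with Gm26995, besides Nefl and Nefm. Reads from these stretches cannot be assigned by strand with this library kit.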

How the data were processed

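Per the labels' protocols, whole-tumour RNA was purified on RNeasy Mini columns and sequenced from unstranded TruSeq mRNA v2 libraries. The authors deposited, for each of the 8 tumours, unnormalised whole-number read counts for Ensembl genes. Tools listed in the submitters' processing notes are STAR 2.3.0 and HTSeq 0.6, beside CASAVA 1.8.2, SAMtools 1.2 and DESeq2 1.8.1, with mm10 as the build and no role stated for any tool. Neither the annotation release nor the strand setting is stated in the labels or notes. The 5 closing lines of each table, which count unassigned reads, were set aside: reads in no feature came to 9.74% to 11.7% of uniquely aligned reads. Symbols came from GENCODE M21 for 36602 of 38355 identifiers (95.4%), and promoter windows from RefSeq.

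Counts were tested with edgeR 4.0.16 in R 4.3.3 (filterByExpr, TMM scaling, quasi-likelihood F-test with robust dispersions, group as the only term), with Benjamini-Hochberg adjustment over 16539 genes and calls at an adjusted p under 0.05. Fold changes are Trp53ΔIECAktE17K over Trp53ΔIEC. The standard error is the log2 fold change over the square root of F. DESeq2 1.42.0, limma-voom (limma 3.58.1), other scaling and filters, a replicate block, the letter of the sample titles and the removal of each tumour were tried as alternatives. In data drawn with known changes, edgeR recovered 60 of 100 genes changed 4-fold.

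Members, gene lists and tests were chosen with earlier results of these data known. Named genes are all members and, from every other list, up to 4 called genes by adjusted p, or 2 where none was called. Some of the genes this rule selects are not reported here. The groups share replicate numbers, but nothing in the labels says that a number pairs mice, so the comparison is unpaired.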

Additional observations from a re-analysis of the deposited data

Results flagged for a closer look

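In groups of 4 tumours, a value was picked out where its gap to the nearest other tumour, divided by the range of the group, exceeded Dixon's 95% critical value for 4 values. Of 134 groups examined 15 were picked out. The chance rate of about 1 in 20 holds for normally distributed values, whereas these are CPM that often rest on few reads. A group with reads in a single tumour is picked out automatically. The number picked out is therefore not comparable with that rate.

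Among the Trp53ΔIECAktE17K tumours, Ret stood at 24.2 CPM in tumour 4, against 13.4 to 13.9 CPM in the others. Npy stood at 3.26 CPM in Trp53ΔIECAktE17K tumour 1, against 0.504 to 0.947 CPM. Crp stood at 0.0423 CPM, a single read, in tumour 1 of that group and at 0 in the others.

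Among the Trp53ΔIEC tumours, the list's genes gave 7 such values. Tac1 stood at 156.3 CPM in tumour 3, against 3.56 to 22.2 CPM in the others. Elavl4 stood at 4.58 CPM in the same tumour, against 0.0383 to 0.414 CPM, and Gfra1 was lowest there at 0.447 CPM, against 4.59 to 5.12 CPM. Npy at 11.8 CPM and Gal at 0.918 CPM were highest in Trp53ΔIEC tumour 1, where the others had up to 1.24 and 0.140 CPM. Tubb3 at 1.84 CPM and Chat at 0.263 CPM were highest in Trp53ΔIEC tumour 2, where the others had up to 0.512 and 0 CPM.

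Genes of other lists gave the rest among the Trp53ΔIEC tumours. Htr3a had 0.113 CPM in tumour 2 and 0 in the others. Scn7a had 2.29 CPM in tumour 3, Sst 0.558 CPM in tumour 4, and Cnn1 and Des 16.8 and 22.6 CPM in tumour 1, each the highest of its group.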

How the results depend on the processing

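For the neuronal genes, RLE scaling, limma-voom, DESeq2, no filter on low counts and a filter of 1 CPM in 4 libraries gave 15, 14, 19, 17 and 11 higher calls, against 15. DESeq2 gave 1 lower call. No batch is named in the labels. For same-numbered tumours, correlations of their deviations from the group means ran from -0.243 to 0.00928. No tumour correlated best with its own number. Tumours of unlike number ran from -0.242 to 0.25, so these values cannot decide whether the numbers pair mice. With a replicate block 2 genes stayed called, Scg2 and Uchl1, and with the letter of the sample titles as a term 2, Gap43 and Uchl1. Leaving out 1 tumour gave 1 to 19.

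Over all genes, DESeq2 called 1416 higher and 753 lower, the replicate block 48 and 2, and the title letter 90 and 6. RLE scaling gave 518 higher and 128 lower and limma-voom 410 and 107, each of 16539 tested genes. Without a filter on low counts the numbers were 516 and 84 of 26358 genes. The filter of 1 CPM in 4 libraries gave 431 and 93 of 14897 genes. Leaving out 1 tumour gave 64 to 702 higher and 10 to 247 lower. Removals and extra terms also leave fewer residual degrees of freedom.

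Some genes that were never called changed sign. The log2 fold change of Tac1 was 0.12 in limma-voom, 0.25 with the replicate block and -1.51 to 0.69 in the removals. In the removals Npy ran from -2.30 to 0.89, Nefh from -0.46 to 0.01, Syt1 from -0.78 to 0.33 and L1cam from -0.31 to 0.28, and L1cam was -0.01 in limma-voom. Apart from the removals, the cause of these moves was not tested.

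Depth limits Chat in both groups, Th in the Trp53ΔIECAktE17K tumours and the Trp53ΔIEC values of Calb2, Stmn3, Nefl, Nefm, Vip, Cartpt and Gap43. In each of these every tumour had fewer than 10 reads.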
